A study of Mus musculus with 12 samples.

Results

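The genes described here were the S100 genes that macrophages from bone marrow express, S100a1, S100a4, S100a6, S100a8, S100a9, S100a10, S100a11 and S100a13, together with Crip1. They were selected on the log2 fold changes with the DGAT1 inhibitor T863 in resting and in inflammatory macrophages, which differed for Crip1, S100a8 and S100a9, and they make up 9 of the 47937 genes counted. All 9 were among the 11760 genes with enough reads for testing. Because the responses to T863 chose them, those responses are given as values without a test.

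Macrophages were grown for 7 days from bone marrow of C57BL/6 mice in CSF-1 (20 ng/ml), and 4 groups of 3 libraries were sequenced. M0 macrophages received no stimulus, and inflammatory macrophages received IFNγ at 50 ng/ml with LPS at 20 ng/ml for 18 h. Each state was also cultured with T863 at 50 μM, a small molecule that inhibits DGAT1, the enzyme that turns diacylglycerol into triacylglycerol. No time is labelled for the M0 libraries without T863. The descriptions of replicates 2 and 3 of M0 with T863 give another compound number, whereas their titles and sources give the inhibitor. They were kept, and values without them are given where they differ. A small molecule can act beyond its target, and no library with a genetic loss of DGAT1 was analysed here. The labels do not say whether libraries of a group came from separate animals or cultures, so p-values measure the spread between these libraries. The labels name a NEBNext kit and the study's methods a TruSeq stranded kit, and the labels give no batch.

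Libraries held 4996014 to 6621671 reads on genes, and levels are given as CPM, read counts scaled to a library's total after TMM adjustment, 1 CPM being worth 4.28 to 7.58 reads. Replicates differed by 1.90 to 3.96 times the counting noise (chi-square per gene), and none looked like a library deposited again. The 7 macrophage markers Adgre1, Csf1r, Cd68, Mertk, Fcgr1, Itgam and Lyz2 had reads in all groups, summing to between 7818 and 17985 CPM in a library. Of 12 markers of neutrophils and their precursors, 7 to 10 had reads in a group, summing to between 43.3 and 203 CPM in a library, and the defining Ly6g and Retnlg had 0 reads in all 4 groups.

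S100 proteins are small proteins that bind calcium through EF-hands, usually as dimers, and then attach to partner proteins. S100a8 and S100a9 pair as calprotectin, which neutrophils and monocytes hold in large amounts and release at sites of inflammation, where it withholds zinc and manganese from microbes and signals through Tlr4 and the receptor for advanced glycation end products, Ager. S100a10 and S100a11 partner with annexins at membranes, S100a4 with the heavy chain of nonmuscle myosin, and S100a6 with Cacybp. S100a13 takes part in the release of cytokines that lack a signal peptide, and S100a1 is best known from the calcium handling of muscle. Crip1 is not an S100 protein: it is a small protein with 1 LIM domain, a fold held by zinc.

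The 8 S100 genes lie on mouse chromosome 3 and Crip1 on chromosome 12 (GENCODE release M21, GRCm38). S100a1, S100a13, S100a4, S100a6, S100a8 and S100a9 lie within 184688 bases, at chr3:90511034-90695721. S100a11 and S100a10 lie within 44156 bases, at chr3:93520488-93564643, and 2824766 bases with 60 protein-coding genes separate them from the former stretch. S100a1 on the minus strand and S100a13 on the plus strand start head to head, 42 bases apart. S100a8 on the plus strand and S100a9 on the minus strand face each other across 22596 bases with no protein-coding gene between. Crip1 lies at chr12:113146316-113153879 on the plus strand.

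The promoter windows of the 4 genes whose response to T863 had opposite signs in the 2 states are shown to let their start regions be compared. Each runs 5′ to 3′ on the gene's strand from 250 bases before to 50 bases after the RefSeq start (RefSeq, GRCm38.p6). Capitals mark matches, on either strand, to the TATA box (TATAAA), the core of C/EBP sites (TTGCNNAA), the AP-1 motif (TGANTCA), the GAS element (TTCNNNGAA), the GC box (GGGCGG) and the core of PU.1 sites (GAGGAA). On the strand printed, the last of these can also read TTCCTC. The windows are S100a8 at chr3:90668821-90669120 (plus strand), S100a9 at chr3:90695672-90695971 (minus strand), S100a4 at chr3:90603520-90603819 (plus strand) and Crip1 at chr12:113151762-113152061 (plus strand).
S100a8: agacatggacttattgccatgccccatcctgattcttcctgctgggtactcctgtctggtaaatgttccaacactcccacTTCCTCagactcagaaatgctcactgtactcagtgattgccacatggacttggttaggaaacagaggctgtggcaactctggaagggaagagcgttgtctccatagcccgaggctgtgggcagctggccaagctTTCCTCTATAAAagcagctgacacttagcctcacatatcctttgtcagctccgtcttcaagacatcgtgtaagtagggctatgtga
S100a9: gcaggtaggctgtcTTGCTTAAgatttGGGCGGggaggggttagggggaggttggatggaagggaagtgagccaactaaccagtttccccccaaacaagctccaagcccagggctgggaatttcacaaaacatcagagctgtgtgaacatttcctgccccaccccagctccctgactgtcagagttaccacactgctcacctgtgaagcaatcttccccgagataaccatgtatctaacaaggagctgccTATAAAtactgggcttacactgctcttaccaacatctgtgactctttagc
S100a4: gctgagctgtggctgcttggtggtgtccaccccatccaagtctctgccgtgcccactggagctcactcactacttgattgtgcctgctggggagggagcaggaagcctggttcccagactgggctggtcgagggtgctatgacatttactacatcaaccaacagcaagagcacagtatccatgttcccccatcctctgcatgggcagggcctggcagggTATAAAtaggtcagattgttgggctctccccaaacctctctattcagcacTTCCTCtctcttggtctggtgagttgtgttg
Crip1: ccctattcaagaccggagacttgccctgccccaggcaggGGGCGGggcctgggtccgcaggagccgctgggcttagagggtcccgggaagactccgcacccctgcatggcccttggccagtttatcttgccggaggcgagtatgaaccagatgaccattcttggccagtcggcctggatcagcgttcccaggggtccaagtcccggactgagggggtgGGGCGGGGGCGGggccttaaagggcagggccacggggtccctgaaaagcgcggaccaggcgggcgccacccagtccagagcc

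Of the 9 genes, 8 had a window among the 32851 of RefSeq. The S100 windows above each hold 1 TATAAA, and the Crip1 window holds none. In S100a8 this match lies 30 to 25 bases before the start, and TTCCTC joins it directly upstream, so that the capitals run on. In S100a4 it lies 31 to 26 bases before the start, and in S100a9 on the first bases of the window after the RefSeq start. Among the 8 windows TATAAA occurred in 3, against 13.6% of all windows. S100a8 holds TTCCTC at 2 places, and S100a9 holds 1 TTGCNNAA, which 10.8% of all windows hold, with 1 GGGCGG. Crip1 holds GGGCGG 3 times, of which 2 adjoin, in a window of 68.3% G and C, compared with a median of 52.7%. GGGCGG occurred in 3 of the 8 windows and in 35.7% of all, and GAGGAA in 3 of 8 and in 28.3% of all. S100a11, not printed, holds TGANTCA at 2 places, a motif present in 7.81% of all windows. None of the 8 windows holds TTCNNNGAA, present in 8.30% of all. The windows of S100a1 and S100a13 overlap and contain no match. A match describes letters and says nothing about binding.

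S100a8, a subunit of calprotectin, was a low-level mRNA in 3 groups and a moderate one in the fourth. Its level was 6.54, 6.79 and 8.35 CPM in the M0 libraries and 5.58, 4.40 and 5.67 CPM in M0 with T863. It was 8.63, 8.28 and 10.5 CPM after IFNγ+LPS and 41.6, 32.3 and 29.7 CPM after IFNγ+LPS with T863. All 3 libraries of the last group stood above the other 9, which lay between 4.40 and 10.5 CPM. These levels rest on 31 to 60 reads in each of the 9 and on 202, 155 and 127 reads in the last group. T863 was associated with a log2 fold change of -0.46 (SE 0.19) in M0 and of 1.92 (SE 0.15) in IFNγ+LPS, and the groups overlapped in neither state.

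S100a9, its partner in calprotectin, shared with S100a8 the groups of highest and lowest mean, while M0 and IFNγ+LPS exchanged places and overlapped. Its level was 9.88, 9.72 and 10.6 CPM in M0, and 6.11, 6.53 and 8.71 CPM in M0 with T863. After IFNγ+LPS the libraries spread widely, at 5.26, 7.02 and 11.1 CPM, and with T863 they reached 25.9, 18.6 and 32.9 CPM. The IFNγ+LPS group overlapped both M0 groups, while the group with IFNγ+LPS and T863 lay above all other libraries. The log2 fold change with T863 was -0.50 (SE 0.23) in M0 and 1.70 (SE 0.22) in IFNγ+LPS, without overlap in either. The ratio of S100a8 to S100a9 reads was 0.717 ± 0.0657 (SD, n = 3) in M0, 0.746 ± 0.145 with T863, 1.26 ± 0.352 in IFNγ+LPS and 1.42 ± 0.451 with both. Its ranges with and without T863 overlapped in each state.

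Crip1, the LIM domain gene, was abundant in M0, at 173, 182 and 181 CPM. With T863 it was 133, 117 and 131 CPM in M0. After IFNγ+LPS it was 37.5, 32.4 and 32.6 CPM, and with T863 77.2, 62.8 and 71.9 CPM. The 4 groups formed 4 separate ranges, in the order M0, M0 with T863, IFNγ+LPS with T863 and IFNγ+LPS. The log2 fold change with T863 was -0.49 (SE 0.06) in M0 and 1.05 (SE 0.09) in IFNγ+LPS.

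S100a4, the myosin-binding member, followed the same order of groups as Crip1 with a smaller response in the inflammatory state. Its level was 158, 193 and 149 CPM in M0, and 125, 120 and 122 CPM with T863. It was 27.8, 21.6 and 25.5 CPM after IFNγ+LPS, and 39.9, 30.9 and 28.5 CPM with T863. The nearest libraries of the latter groups lay at 27.8 and 28.5 CPM. The log2 fold changes with T863 were -0.45 (SE 0.09) in M0 and 0.42 (SE 0.15) in IFNγ+LPS, and the latter was 0.26 without replicate 1 of IFNγ+LPS with T863. S100a4 shares 302 exon bases with the annotated gene Gm42674 on the same strand, which had 0 reads in all libraries. As the counting tool was not given, it is not known whether reads in these bases were counted for S100a4.

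**Figure D1:**
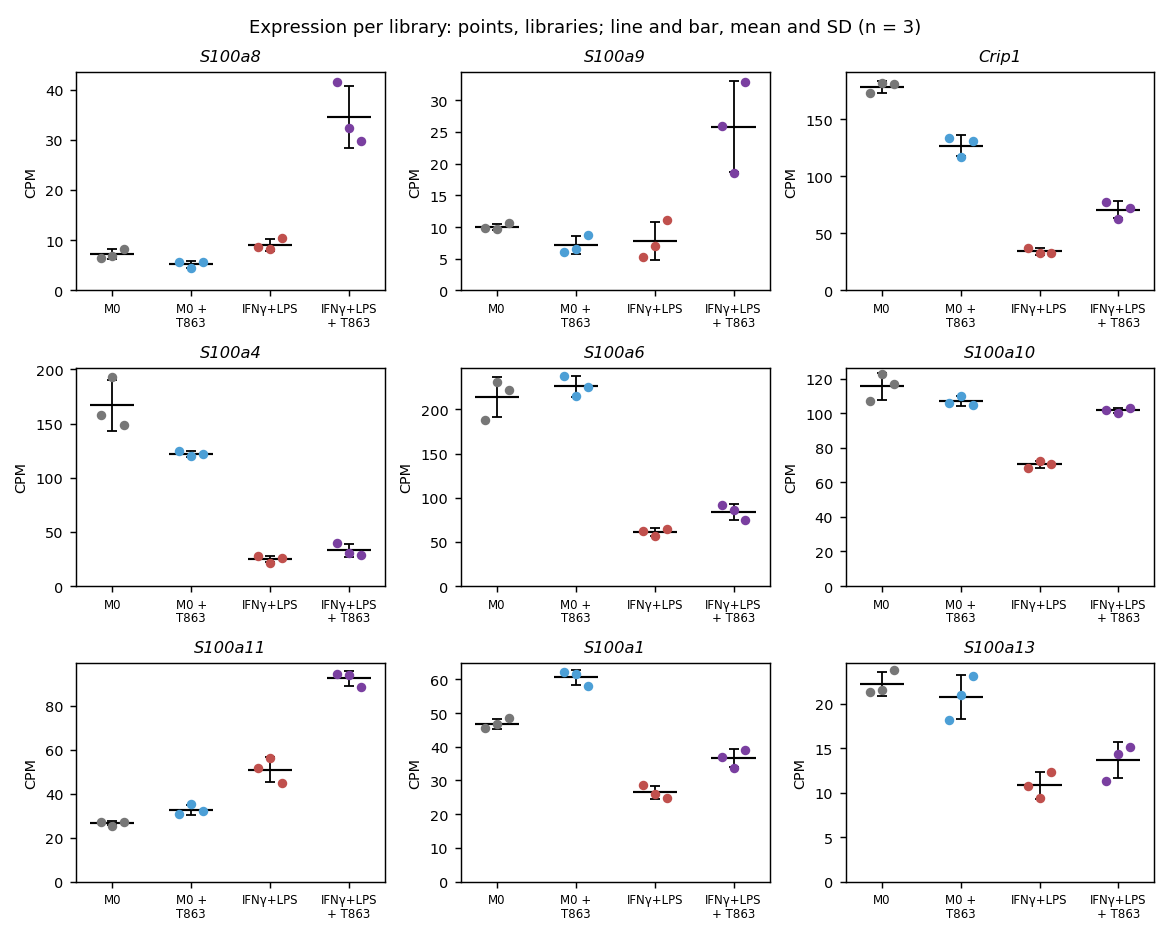
Level of the 9 genes in CPM after TMM scaling in each library, for M0, M0 with T863, IFNγ+LPS and IFNγ+LPS with T863, each panel with its own axis from 0. Points are libraries, and the line and bar are the mean and SD of 3. S100a8 and S100a9 are highest in IFNγ+LPS with T863, at means of 34.5 and 25.8 CPM, while Crip1 and S100a4 are highest in M0, at 178 and 167 CPM.

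S100a6, the partner of Cacybp, had the most reads of the S100 genes in both M0 groups, and S100a10 in both IFNγ+LPS groups. Its level was 188, 231 and 222 CPM in M0 and 238, 215 and 226 CPM with T863, ranges that overlapped. After IFNγ+LPS it was 62.5, 56.3 and 64.4 CPM, below the 92.0, 85.5 and 74.2 CPM found with T863. Its log2 fold change with T863 was 0.08 (SE 0.07) in M0, which became -0.005 without M0 replicate 1, and 0.46 (SE 0.09) in IFNγ+LPS.

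S100a10, the annexin A2 partner, varied least between groups. It was at 107, 123 and 117 CPM in M0 and 106, 110 and 105 CPM with T863, which overlapped. It was at 68.4, 72.4 and 70.6 CPM after IFNγ+LPS and 102, 99.9 and 103 CPM with T863, just below the M0 groups. The highest group mean was 1.64 times the lowest. The log2 fold change with T863 was -0.11 (SE 0.06) in M0, where it was -0.07 without M0 replicate 2, and 0.53 (SE 0.07) in IFNγ+LPS.

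S100a11, the annexin A1 partner, was the only one of the 9 in which the 4 groups were separate and stood, from low to high, in the order M0, M0 with T863, IFNγ+LPS and IFNγ+LPS with T863. The levels were 26.9, 25.4 and 27.3 CPM in M0, and 30.6, 35.1 and 32.2 CPM with T863. They were 51.6, 56.0 and 44.8 CPM after IFNγ+LPS, and 94.5, 94.1 and 88.5 CPM with T863. T863 went with positive values in both states, 0.30 (SE 0.09) in M0 and 0.86 (SE 0.08) in IFNγ+LPS on the log2 scale. Gm12854 and Gm7665, which match over 58.1% of the S100a11 transcript, had 7 and 3 reads in all libraries together.

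S100a1 and S100a13, the genes that start head to head, had T863 values of opposite sign in M0, a difference that was not tested. S100a1 was at 45.5, 46.6 and 48.5 CPM in M0 and at 62.2, 61.6 and 58.1 CPM with T863, its highest group. It was at 28.6, 25.9 and 24.9 CPM after IFNγ+LPS, and at 37.1, 33.8 and 39.0 CPM with T863. S100a13, which serves the export of cytokines, was at 21.4, 21.6 and 23.8 CPM in M0 and at 18.2, 21.0 and 23.1 CPM with T863, which overlapped. It was at 10.7, 9.36 and 12.4 CPM after IFNγ+LPS and at 11.3, 14.4 and 15.2 CPM with T863, which overlapped as well. The log2 fold changes with T863 were 0.37 (SE 0.08) and -0.10 (SE 0.11) in M0, and 0.47 (SE 0.10) and 0.33 (SE 0.16) in IFNγ+LPS, for S100a1 and S100a13 in that order. In M0 the value of S100a13 was -0.01 without replicate 1 of M0 with T863 and -0.19 without replicate 3.

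The 9 genes together took 0.0935% ± 0.00605 of reads in M0 and 0.0809% ± 0.00233 in M0 with T863 (SD, n = 3). The share was 0.0254% ± 0.000813 after IFNγ+LPS and 0.0420% ± 0.00225 with T863. In RNA from whole cultures, fewer cells that express a gene and less of its RNA per cell cannot be told apart. Of the remaining S100 genes of the mouse, 9 were found in the counts and none passed the filter. S100a7a had 11 reads over the 12 libraries, S100a2, S100a3 and S100b had 2 each, S100a14 and S100a16 had 1 each, and S100a5, S100g and S100z had 0.

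Levels of different genes were compared per kilobase of exon. In M0, S100a4 was the highest at 285 ± 39.7 CPM per kb, above S100a6 at 156 ± 16.8 (SD, n = 3), and S100a8 the lowest at 10.4 ± 1.42. In IFNγ+LPS, S100a11 was the highest at 99.4 ± 11.1 CPM per kb, above S100a10 at 58.1 ± 1.63. S100a13, Crip1, S100a9 and S100a8 were then the lowest, between 15.1 and 13.2, and each overlapped the next. With T863, S100a8 and S100a9 stood at 49.7 ± 9.02 and 49.4 ± 13.8 CPM per kb and overlapped each other and S100a1 at 52.8 ± 3.79. The order depends on the length used. With the longest or the principal transcript, S100a10 at 103 CPM per kb was highest in IFNγ+LPS and overlapped S100a11. With the principal transcript, Crip1 was highest in M0 and overlapped S100a4, which overlapped S100a6. The exons of Crip1 cover 2280 bases and its principal transcript 516, so that its M0 level was 78.3 or 346 CPM per kb.

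IFNγ+LPS was compared with M0 as an average over the absence and presence of T863. That average is another contrast than the difference between the T863 responses that chose the genes, but both use the same 12 libraries and are not independent where the groups differ in precision, as for S100a8 and S100a9. The mRNAs of 6 of the 9 genes fell and those of 3 rose, all 9 with an adjusted p under 0.05 (quasi-likelihood test of edgeR, Benjamini-Hochberg over 11760 genes). This count is read against a background in which 79.2% of all genes tested passed, 39.5% higher and 39.7% lower. The median log2 fold change was -0.78 for the 9 genes and -0.01 for all genes tested.

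Among the genes that fell, S100a4 had the largest change, with a log2 fold change of -2.31 (SE 0.08, adjusted p = 2.19e-15 in edgeR). Crip1 fell by 1.62 (SE 0.05, adjusted p = 9.23e-35 in edgeR) and S100a6 by 1.62 (SE 0.05, adjusted p = 1.75e-23) on the log2 scale. S100a13 fell by 0.83 (SE 0.10), S100a1 by 0.78 (SE 0.06) and S100a10 by 0.39 (SE 0.05), with adjusted p of at most 4.18e-11 in edgeR. With scaling by library size only these were at -1.27, -1.22 and -0.84, and the median of all genes was at -0.45. S100a11 rose by 1.22 (SE 0.06, adjusted p = 1.43e-25 in edgeR). In this average S100a8 rose by 1.53 (SE 0.12, adjusted p = 1.10e-16 in edgeR) and S100a9 by 0.74 (SE 0.16, adjusted p = 2.36e-04 in edgeR), although the groups of both overlapped without T863. The call of S100a9 was lost with scaling by library size only, at 0.30 with an adjusted p of 0.101 in edgeR.

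For calprotectin the average joins unequal parts, and its p is no evidence apart from the libraries of IFNγ+LPS with T863 that also entered the choice of the genes. Without T863, S100a8 differed between IFNγ+LPS and M0 by a log2 fold change of 0.34 (SE 0.19) and S100a9 by -0.36 (SE 0.24), and the groups of both genes overlapped. With T863 the values were 2.72 (SE 0.15) and 1.84 (SE 0.20), without overlap. The value of S100a8 without T863 was -0.13 with scaling by library size only, a scaling under which the median of all genes stood at -0.46.

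The remaining members kept their sign with and without T863, with a smaller size with T863 in 6 of 7. Crip1 went from -2.39 (SE 0.08) without T863 to -0.85 (SE 0.07) with it, and S100a4 from -2.75 (SE 0.12) to -1.88 (SE 0.12). S100a6 went from -1.81 to -1.43, S100a13 from -1.04 to -0.61 and S100a1 from -0.83 to -0.73. S100a10 went from -0.71 (SE 0.07) to -0.07 (SE 0.06), close to its M0 level. S100a11 had the larger value with T863, 1.50 (SE 0.08) after 0.94 (SE 0.09). The groups did not overlap for 7 of 9 genes without T863, when 75.4% of all genes tested did not overlap, and for 9 of 9 with T863, when 72.5% did not. These contrasts, read together, hold the difference that chose the genes, and nothing is drawn from the counts.

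**Figure D2:**
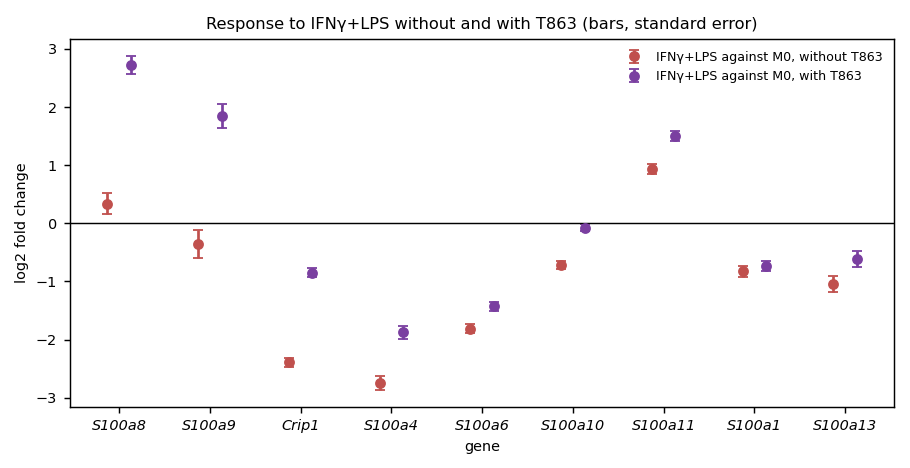
Log2 fold change of each gene between IFNγ+LPS and M0, without T863 (red) and with T863 (purple), with standard errors from the edgeR fit. S100a8 goes from 0.34 to 2.72 and S100a9 from -0.36 to 1.84, whereas Crip1 goes from -2.39 to -0.85.

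The responses to T863 in the 2 states were set side by side as a description of how the genes were chosen. In IFNγ+LPS the values of all 9 genes were positive, from 0.33 for S100a13 to 1.92 for S100a8, with a median of 0.53 against -0.01 for all genes. In M0 they ranged from -0.50 for S100a9 to 0.37 for S100a1, 3 above and 6 below 0, with a median of -0.11 against 0.004 for all genes. Groups did not overlap for 6 of 9 genes in M0 and for 8 of 9 in IFNγ+LPS, where the shares of all genes tested were 37.8% and 39.7%. S100a4, S100a8, S100a9 and Crip1 moved in opposite directions without overlap in either state, as 5.2% of all genes tested did, and 2.34% in this order of lower and then higher. Nothing is read from these counts, since the rule used the same contrasts.

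The difference between both responses, IFNγ+LPS minus M0, was 2.38 (SE 0.25) for S100a8, 2.20 (SE 0.31) for S100a9 and 1.54 (SE 0.11) for Crip1 on the log2 scale. It was 0.87 (SE 0.18) for S100a4, 0.64 (SE 0.09) for S100a10, 0.57 (SE 0.12) for S100a11, 0.43 (SE 0.20) for S100a13 and 0.38 (SE 0.11) for S100a6. For S100a1 it was 0.10, with a 95% interval from -0.16 to 0.35, and it was 0.05 without replicate 3 of IFNγ+LPS with T863 and was 0.15 without replicate 1 of IFNγ+LPS. Without both libraries described with another compound number, S100a9 in M0 stood at -0.73, S100a8 at -0.39, Crip1 at -0.44 and S100a4 at -0.43, and the values of S100a11 and S100a13 moved to 0.19 and -0.31. In that fit M0 with T863 is 1 library, assumed to vary like the other groups.

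**Figure D3:**
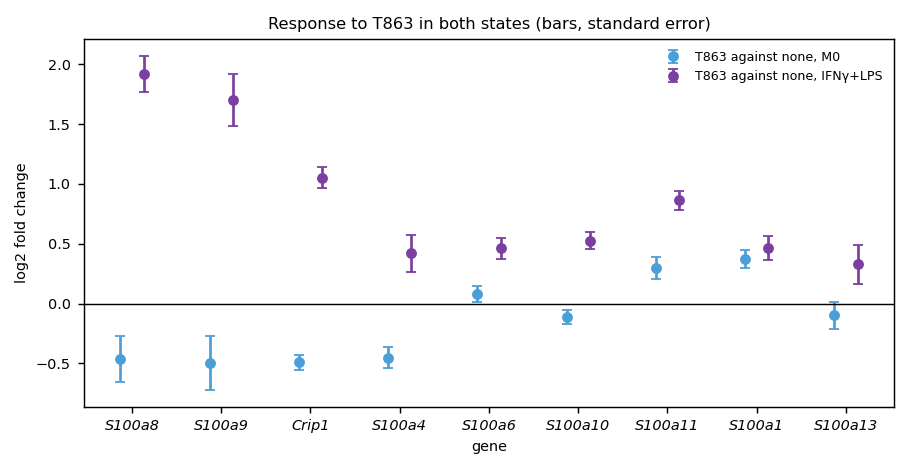
Log2 fold change of each gene with T863 against none, in M0 (blue) and in IFNγ+LPS (purple), with standard errors from the edgeR fit. S100a8, S100a9, Crip1 and S100a4 lie below 0 in M0, at -0.46, -0.50, -0.49 and -0.45, and above 0 in IFNγ+LPS, at 1.92, 1.70, 1.05 and 0.42.

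The other genes of 5 lists around these proteins were tested in each comparison, with edgeR and adjustment over all genes. Of 16 genes for binding partners of S100 proteins, 9 rose and 7 fell with IFNγ+LPS averaged over T863, where 79.2% of all genes passed, 39.5% higher and 39.7% lower. With T863 in M0, 2 rose and 6 fell, where 24.4% of all genes passed, 11% higher and 13.4% lower. In IFNγ+LPS 4 rose and 4 fell with T863, where 29.8% of all genes passed, 13.5% higher and 16.3% lower. Anxa2, the annexin bound by S100a10, was at 623, 649 and 629 CPM in M0, 530, 578 and 572 CPM with T863, 381, 428 and 420 CPM after IFNγ+LPS, and 503, 527 and 527 CPM with T863. It fell with T863 in M0 by 0.18 (SE 0.05, adjusted p = 0.00618 in edgeR), a call lost without replicate 1 of M0 with T863 (adjusted p = 0.0772), and rose in IFNγ+LPS by 0.34 (SE 0.05, adjusted p = 7.42e-07). The difference between these responses was 0.52 (SE 0.07, adjusted p = 2.51e-07 in edgeR). The group order of Anxa2 was that of S100a10, with M0 highest and IFNγ+LPS lowest, and also that of S100a4, S100a13 and Crip1.

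Further partners showed no common direction. Anxa1, the annexin bound by S100a11, fell with IFNγ+LPS by 2.02 (SE 0.04, adjusted p = 2.15e-46 in edgeR), whereas S100a11 itself rose. Its difference between the T863 responses was -0.14 (SE 0.07, adjusted p = 0.196 in edgeR). Myh9, the myosin heavy chain bound by S100a4, fell with T863 in M0 by 0.30 (SE 0.05, adjusted p = 3.15e-06) and had a value of -0.06 (adjusted p = 0.401 in edgeR) in IFNγ+LPS. Cacybp, bound by S100a6, rose with IFNγ+LPS by 1.49 (SE 0.06, adjusted p = 1.77e-26), and its T863 responses of -0.07 and 0.11 did not pass (adjusted p = 0.648 and 0.257 in edgeR). Ahnak, which S100a10 and Anxa2 bind, fell with IFNγ+LPS by 0.74 (SE 0.09, adjusted p = 2.67e-05 in edgeR). Anxa3 fell by 2.07 and Anxa4 rose by 1.60 with IFNγ+LPS (adjusted p = 2.40e-41 and 7.69e-42 in edgeR). The difference between T863 responses passed for 4 of the 16 genes, all positive, namely Anxa2, Anxa3, Myh9 and, named after its values were seen, Anxa5. The call of Myh9 was lost in 3 of 19 alternatives. Of all genes 18.5% passed this test, 8.66% higher and 9.8% lower.

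Of 11 genes for receptors of S100a8 and S100a9 and their signalling, 10 were tested. Ager had at most 14 reads in a library and was not tested. Of the 10, 5 rose and 3 fell with IFNγ+LPS averaged over T863 (79.2% of all genes passed). With T863, 2 rose and 3 fell in M0 (24.4% of all genes) and 3 rose and 3 fell in IFNγ+LPS (29.8% of all genes). Tlr4, the receptor through which calprotectin signals, fell with IFNγ+LPS by 0.30 (SE 0.04, adjusted p = 1.07e-08) and with T863 in IFNγ+LPS by 0.36 (SE 0.06, adjusted p = 1.13e-05 in edgeR). Myd88, the adaptor downstream of Tlr4, rose with IFNγ+LPS by 1.41 (SE 0.05, adjusted p = 3.09e-33) and fell with T863 in IFNγ+LPS by 0.57 (SE 0.06, adjusted p = 2.66e-10 in edgeR). Tlr4 and Myd88 also fell with T863 in M0, by 0.16 and 0.26 (adjusted p = 0.0365 and 0.00534 in edgeR), calls lost in 6 and 2 of 20 alternatives. Cd36, a scavenger receptor, rose with T863 in both states, by 0.51 and 0.32 (adjusted p = 2.15e-07 and 2.81e-04 in edgeR). Traf6, a ubiquitin ligase of this pathway, rose with T863 in IFNγ+LPS by 0.41 (SE 0.09, adjusted p = 1.62e-04 in edgeR), as did Bsg, named after its values were seen, by 0.28 (adjusted p = 5.23e-05 in edgeR).

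Of 18 genes with LIM domains related to Crip1, 10 were tested, and 5 rose and 3 fell with IFNγ+LPS averaged over T863, close to the 79.2% of all genes that passed. With T863, 1 rose and 5 fell in M0 (24.4% of all genes), and 3 rose and 2 fell in IFNγ+LPS (29.8%). Zyx, a LIM protein of focal adhesions, was at 92.1, 97.2 and 84.8 CPM in M0, 68.9, 78.8 and 80.8 CPM with T863, 602, 571 and 554 CPM after IFNγ+LPS and 1005, 1000 and 1058 CPM with T863. It rose with IFNγ+LPS by 3.20 (SE 0.04, adjusted p = 1.05e-53), opposite to Crip1. Like Crip1, it was lower with T863 in M0, by a log2 fold change of -0.26 (SE 0.07, adjusted p = 0.00140 in edgeR), and higher in IFNγ+LPS, by 0.83 (SE 0.05, adjusted p = 8.21e-19). Csrp1 and Pdlim5, which also carry LIM domains, fell with T863 in M0 by 0.41 and 0.42 (adjusted p = 5.44e-07 and 6.25e-08 in edgeR) and had values of 0.07 and 0.12 in IFNγ+LPS that did not pass. Lmo4, a nuclear LIM protein, fell with T863 in IFNγ+LPS by 0.37 (SE 0.05, adjusted p = 2.14e-07 in edgeR).

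Of 12 transcription factors of myeloid differentiation, 9 were tested, and 5 rose and 3 fell with IFNγ+LPS averaged over T863 (79.2% of all genes passed). T863 gave 1 rise and 1 fall in M0 (24.4% of all genes), and 1 rise and 3 falls in IFNγ+LPS (29.8%). Klf4, a factor of monocyte differentiation, rose with IFNγ+LPS by 3.30 (SE 0.08, adjusted p = 4.41e-41) and fell with T863 in IFNγ+LPS by 1.36 (SE 0.08, adjusted p = 4.01e-20 in edgeR), from 124, 145 and 125 CPM to 46.9, 50.7 and 56.3 CPM. Its response to T863 in M0 was 0.03 (SE 0.16, adjusted p = 0.915 in edgeR). Spi1, which encodes PU.1, and Stat3 fell with T863 in IFNγ+LPS by 0.28 and 0.39 (adjusted p = 3.43e-05 and 7.55e-09 in edgeR). Cebpb, which encodes C/EBPβ, rose with IFNγ+LPS by 3.59 (SE 0.18, adjusted p = 5.53e-08), and its response to T863 in IFNγ+LPS was 0.52 (SE 0.20, adjusted p = 0.0825 in edgeR). That response passed when only the 6 libraries compared were fitted (0.54, adjusted p = 4.16e-05 in edgeR) and without M0 replicate 3 (adjusted p = 0.0400). Cebpe, a factor of granulocyte differentiation, had at most 7 reads in a library.

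S100a8 and S100a9 are also products of the neutrophil line, so 20 granule genes of that line were set beside them. Of these, 7 had enough reads for testing, and 1 rose and 5 fell with IFNγ+LPS averaged over T863, where 39.5% of all genes rose and 39.7% fell. With T863, 1 rose and 2 fell in M0 (24.4% of all genes passed), and in IFNγ+LPS 2 rose, Ngp and Ltf, and 1 fell, Lcn2 (29.8% of all genes). Ngp, a granule protein of neutrophil precursors, had 68, 52 and 66 reads in M0 and 41, 38 and 64 with T863. It had 1, 11 and 10 reads after IFNγ+LPS and 41, 39 and 47 with T863. Its response to T863 was -0.42 (SE 0.21, adjusted p = 0.149) in M0 and 2.68 (SE 0.33, adjusted p = 1.45e-08 in edgeR) in IFNγ+LPS, and the difference was 3.10 (SE 0.40, adjusted p = 9.94e-08).

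Ltf, which encodes lactoferrin and was named after its values were seen, had 43, 51 and 66 reads in M0, 45, 41 and 40 with T863, 1, 5 and 9 after IFNγ+LPS, and 17, 13 and 29 with T863. It rose with T863 in IFNγ+LPS by 2.12 (SE 0.43, adjusted p = 1.06e-04 in edgeR). Both Ngp and Ltf fell with IFNγ+LPS averaged over T863, by 1.05 and 1.67 (adjusted p = 1.14e-05 and 8.18e-09 in edgeR). For Ngp that average joins unlike parts. Its mean went from 8.66 CPM in M0 to 1.35 CPM after IFNγ+LPS without T863, and from 6.43 to 9.18 CPM with T863, where the groups overlapped. Lcn2, which encodes the siderophore-binding lipocalin 2, went from 2.47, 2.93 and 2.51 CPM in M0 to 37.1, 42.1 and 37.5 CPM after IFNγ+LPS, and it fell with T863 there by 0.34 (SE 0.11, adjusted p = 0.0118 in edgeR), a call lost in 3 of 20 alternatives. Lyz2, the macrophage lysozyme, had a value of 0.07 (adjusted p = 0.450 in edgeR) with T863 in IFNγ+LPS. Mmp8, Mmp9 and Chil3 had values of -0.54, -0.25 and 0.43 there, and none passed (adjusted p = 0.323, 0.488 and 0.456 in edgeR). Mmp9 and Chil3 were named after their values were seen. Camp had at most 7 reads in a library, and Elane, Mpo and Prtn3 had between 0 and 6.

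The whole marker list of neutrophils and their precursors summed to 43.3 to 52.6 CPM in M0, 49.3 to 50.8 with T863, 184 to 203 after IFNγ+LPS and 143 to 168 with T863. The sum follows Csf3r, the receptor for G-CSF, which reached 181 to 197 CPM after IFNγ+LPS. With T863 in IFNγ+LPS, Csf3r was lower, at 129 to 154 CPM. The sum of the other 11 genes, taken without Csf3r after its values were seen, was higher there with T863. It stood at 21.2 to 27.4 CPM in M0, 18.5 to 23.2 with T863, 3.16 to 6.84 after IFNγ+LPS and 13.8 to 20.3 with T863. Most of that sum in IFNγ+LPS with T863 was Ngp and Ltf, whose means went from 1.35 and 0.932 CPM without T863 to 9.18 and 4.33 CPM. Mmp8 had a log2 fold change of -0.54 that did not pass, and Ly6g, Elane, Prtn3, Ctsg and Retnlg had 0 reads in that group. A list of 5 monocyte markers summed to 33.3 to 34.6 CPM in M0, 12.6 to 17.4 with T863, 82.8 to 92.9 after IFNγ+LPS and 39.5 to 52.8 with T863. Ly6g, which defines mature neutrophils, had 0 reads in all 12 libraries, and the part of precursors or monocytes in the levels of S100a8 and S100a9 was not tested.

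**Figure D4:**
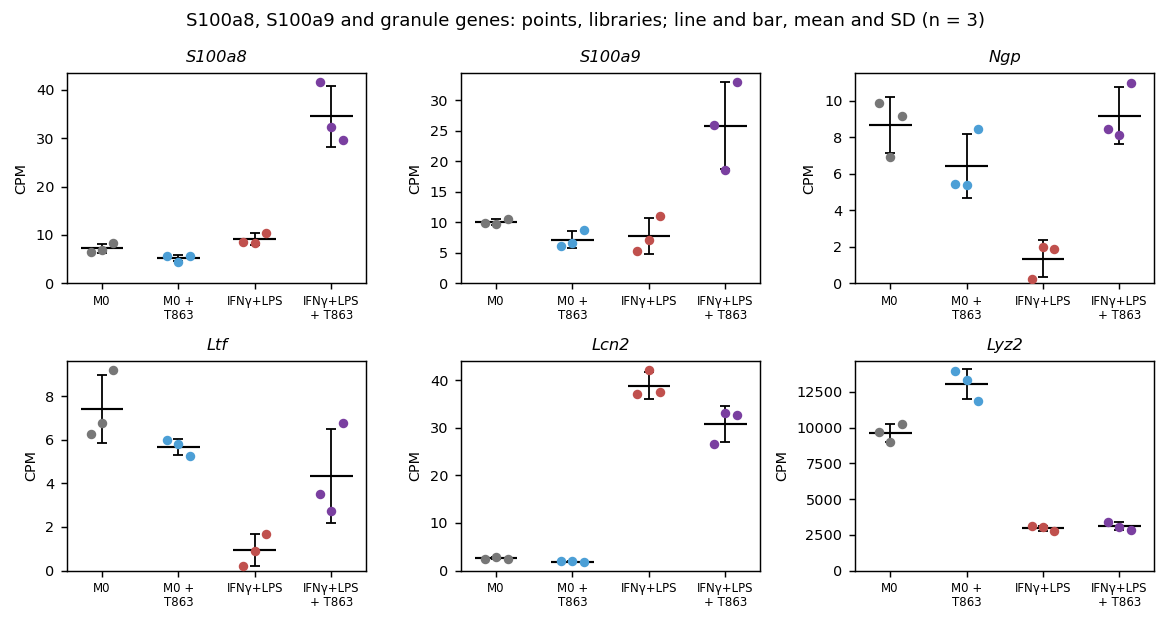
Level in CPM after TMM scaling in each library of S100a8, S100a9 and 4 granule genes, Ngp, Ltf, Lcn2 and Lyz2, in the 4 groups, each panel with its own axis from 0. Points are libraries, and the line and bar are the mean and SD of 3. S100a8, S100a9, Ngp and Ltf lie higher with T863 than without it in IFNγ+LPS, whereas Lcn2 lies lower. Of the granule genes tested but not shown, Mmp8 and Mmp9 had negative values there and Chil3 a positive one, none of which passed.

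Genes with patterns most like the 3 leading members were found by Pearson correlation of log2 CPM over the 12 libraries, among 10171 genes. The points share libraries, depth and treatments, so these values only describe. For Crip1 they were Fsd1l, Pros1, Ephx1, Cd9 and Kmt5c, with r from 0.983 to 0.986. For S100a8 they were Ptgr1, Selenom, Vdac1, Slc6a6 and Tgfbi, with r from 0.951 to 0.976. For S100a9 they were Rab13, Tgfbi, Phf13, Itm2c and S100a8, with r from 0.884 to 0.910, so that S100a8 itself was among them. Ranked by Spearman correlation, 0 of the 5 genes were shared for each of the 3, and S100a4 was then among the 5 for Crip1.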

How the data were processed

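RNA was sequenced from 12 libraries, 3 in each of 4 groups, grouped by the sample titles. The authors deposited raw read counts per gene, without normalization. The submitters' processing notes name GRCm38 and DESeq2, while the aligner and the counting tool were named by none of the labels or methods read (not given in the sources used here). Symbols and positions were taken from GENCODE release M21; 627 identifiers had no symbol.

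The analysis used edgeR 4.0.16 under R 4.3.3: filterByExpr, TMM scaling, 1 mean per group over all 12 libraries, and quasi-likelihood tests with Benjamini-Hochberg adjustment over 11760 genes (threshold 0.05). The common biological coefficient of variation was 0.0507. Levels are CPM with TMM-scaled totals, and per kilobase they use all exon bases. The 9 genes were tested only in the average of IFNγ+LPS over T863. Genes to be named were the 9, further S100 genes, for each list fixed genes and at most 4 called genes with the smallest p, and for Crip1, S100a8 and S100a9 the 5 most correlated genes of average log2 CPM 2 or more. Members and lists were chosen with earlier results of these data known.

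The method was tested on simulated counts. DESeq2 1.42.0 and other alternatives are in the closing section. Copies were searched with BLAST 2.17.0 (95% identity, 20% of the transcript). A further macrophage marker is not reported here.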

Additional observations from a re-analysis of the deposited data

Results flagged for a closer look

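The chosen genes S100a4, S100a8, S100a9 and Crip1 had responses to T863 of opposite sign in the 2 states, with no overlap between groups in either. The log2 fold changes were -0.45 in M0 and 0.42 in IFNγ+LPS for S100a4, -0.46 and 1.92 for S100a8, -0.50 and 1.70 for S100a9, and -0.49 and 1.05 for Crip1. The difference was not tested for these genes, since the genes were chosen on it.

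The lists were written with earlier results of these data known, so nothing is read from counts over them. For 24 of the 52 listed genes tested, the difference between both T863 responses, IFNγ+LPS minus M0, passed edgeR's test with adjustment over all genes, as it did for 18.5% of all genes, each response resting on 3 libraries a group. It was positive for Ngp (3.10), Ltf (2.50), Chil3 (1.44), Zyx (1.09), Cd14 (0.89), Pdlim5 (0.54), Anxa2 (0.52), Anxa3 (0.49), Csrp1 (0.48), Cebpa (0.39), Anxa5 (0.38), Fhl3 (0.31), Lpxn (0.27), Irf8 (0.27) and Myh9 (0.24). It was negative for Klf4 (-1.40), Cebpd (-1.15), Cd33 (-0.57), Lmo4 (-0.45), Irak4 (-0.37), Lyz2 (-0.36), Stat3 (-0.36), Myd88 (-0.30) and Spi1 (-0.26). Ltf, Chil3, Cd14, Cebpa, Anxa5, Fhl3, Lpxn, Cebpd, Cd33 and Irak4 were named after their values were seen. Of 19 alternatives, the call was lost in 8 for Irak4, 7 for Chil3, 6 each for Myd88, Fhl3 and Cebpa, 5 for Lpxn, 4 for Cebpd, 3 for Myh9, 2 each for Cd33 and Spi1, and 1 each for Lmo4 and Irf8. The calls of the other listed genes held in all 19.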

How the results depend on the processing

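Of the 9 genes, 9 passed the test of IFNγ+LPS averaged over T863, as did 79.2% of all genes tested. For S100a8 and S100a9 this p is no evidence apart from the libraries of IFNγ+LPS with T863 that entered the choice. Without T863 their values were 0.34 and -0.36, and the groups of both genes overlapped. Among alternatives with replicates in every group, a call was lost only with scaling by library size, for S100a9 (0.30, adjusted p = 0.101 in edgeR). Under that scaling the median over all genes went from -0.01 to -0.45 on the log2 scale in the average over T863. The share of higher calls went from 49.9% to 25.2% in that average. It went from 45.2% to 29.7% for T863 in M0 and from 46.9% to 58.2% for the difference between the responses.

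The alternatives were RLE size factors, library size only, no filter, a mean CPM of at least 1, DESeq2, the 6 libraries compared, the replicate block and each library left out. Under all of these the counts of called genes stayed within 1.5 times the reported count. Leaving out both M0 libraries described with another compound number, an alternative chosen after seeing the data, left 1661 genes called for T863 in M0 instead of 2869 and 1420 for the difference instead of 2171, with fewer libraries in the fit. It moved the difference of S100a11 to 0.70 and of S100a13 to 0.66.

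With the replicate number as a block, 9338 genes were called in the average, 2959 for T863 in M0, 3568 for T863 in IFNγ+LPS and 2268 for the difference. Same-numbered libraries had residual correlations between -0.02 and 0.07 over 18 pairs, so the numbers were not taken as pairs, although 9 of 12 libraries correlated best with their own number. The call of S100a9 and those of the other members held under the block.

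Among the listed genes, Anxa11 rose with IFNγ+LPS by 0.16 (adjusted p = 0.0321 in edgeR) and was at -0.29 with library size only, and its call was lost or turned in 8 of 19 alternatives. Fhl3 rose by 0.16 and was at -0.29 with library size only. For both genes this came with a median of all genes that went from -0.01 to -0.45 under that scaling. Why the scalings differ was not tested. T863 in M0 for Irf8 was lost in 9 of 20 and for Tlr4 in 6 of 20. Levels per kilobase moved beyond 1 SD in 38 of 72 settings with another transcript length, the principal transcript being chosen after seeing the data. S100a8 and S100a9 rest on 25 to 76 reads per library outside IFNγ+LPS with T863, which limits the precision of their values in M0.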
